A study of Mus musculus with 8 samples.

Results

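The 8 genes Epcam, Cd9, Mcam, Adgra3, Tspan8, Upp1, Pax7 and Plvap have been used as markers to tell stem and progenitor spermatogonia from other testis cells. They were found on the arrays by matching each probe's RefSeq accession to the listed gene. All 8 were represented, by 9 probes of 41174 in all, with 2 probes for Mcam and 1 for each of the others. All 8 passed the filter on dim probes and were among the 17517 genes tested. Of the 8, Upp1 and Pax7 do not encode surface proteins: Upp1 is a soluble uridine phosphorylase and Pax7 a nuclear transcription factor, so the set is called markers here.

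Testis cells carrying Thy1, a surface protein of germ and some somatic cells, were isolated from mice on postnatal day 4, and their RNA was hybridised to 4 arrays labelled Glis3KO2 and 4 labelled wild type (WT). All were on a C57BL/6 background, were untreated and had stayed with their mothers. Glis3 is a zinc finger transcription factor, and the series concerns its role in spermatogenesis, so the comparison asks how its loss bears on these cells. What was deleted in the Glis3KO2 allele, whether tissue was pooled and whether each array is its own animal are not given in the sources used here. The p-values therefore measure only how far these arrays differ, possibly for technical reasons, and the series' design text names 3 testes of each genotype where the labels list 4.

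Spermatogonial stem cells sit on the basement membrane of the seminiferous tubule, renew themselves and give rise to progenitors that later differentiate. They are rare and have no single defining surface protein, so they are enriched by combinations of adhesion molecules, tetraspanins and receptors that other cells carry too. Epcam is a homophilic adhesion molecule of epithelia and germ cells. Mcam (CD146) is an adhesion molecule of the immunoglobulin family found on endothelium, pericytes and spermatogonia. Cd9 and Tspan8 are tetraspanins, membrane proteins that organise integrins and other partners into clusters. Adgra3, also known as Gpr125, is an adhesion G protein-coupled receptor, and Plvap is the diaphragm protein of fenestrated endothelium. Pax7 is the satellite cell factor of skeletal muscle and also marks a small population of spermatogonia in the mouse testis.

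RefSeq promoters on build GRCm38.p6 matched 7 of the 8 genes, and the 250 bases before each listed start were searched on both strands. For Pax7 and Tspan8 the window lies inside the annotated gene (chr4:139737059-139833530 and chr10:115816817-115849893). So does the window of Upp1 promoter 3 (gene at chr11:9118008-9136170), and that of Upp1 promoter 2 runs into the gene. The letters of the GC box were GGGCGG. For the TATA element they were TATAAA, and for the CCAAT element its own name was matched. The core of the published GLIS element was taken as TGGGGGGT. Each motif was counted on its own, and matches of different motifs may overlap. The 3 printed here are Pax7, the one marker whose genotypes did not overlap, Mcam, which has the most GC boxes, and Tspan8, which has none. They read 5′ to 3′ on the strand of the gene, and capitals mark GC boxes.
Pax7 (chr4:139832969-139833218, minus strand): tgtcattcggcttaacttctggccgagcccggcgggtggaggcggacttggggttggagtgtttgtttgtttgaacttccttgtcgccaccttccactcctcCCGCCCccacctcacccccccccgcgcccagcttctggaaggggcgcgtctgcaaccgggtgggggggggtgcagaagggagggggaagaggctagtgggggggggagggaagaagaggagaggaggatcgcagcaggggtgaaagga
Mcam (chr9:44134408-44134657, plus strand): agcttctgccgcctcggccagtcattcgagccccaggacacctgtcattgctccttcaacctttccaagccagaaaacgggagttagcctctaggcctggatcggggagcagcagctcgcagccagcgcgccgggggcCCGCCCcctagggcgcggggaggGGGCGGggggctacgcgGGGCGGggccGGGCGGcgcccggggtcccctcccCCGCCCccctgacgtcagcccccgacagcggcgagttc
Tspan8 (chr10:115817034-115817283, plus strand): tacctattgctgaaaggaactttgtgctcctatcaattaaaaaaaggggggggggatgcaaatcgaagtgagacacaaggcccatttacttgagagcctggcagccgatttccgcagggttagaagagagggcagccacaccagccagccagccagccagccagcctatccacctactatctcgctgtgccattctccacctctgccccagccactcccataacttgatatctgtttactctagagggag
The Mcam window holds 5 GC boxes at a GC content of 73.6%, the Pax7 window 1 at 65.2% and the Tspan8 window 0 at 52.4%, which is the median over 32851 promoters. A GC box was present in 32.7% of those promoters. Cd9 had 2 GC boxes, and Epcam and Adgra3 had 1 each. Upp1 has 3 listed promoters, and 2 of them, whose windows overlap, hold the same 1 GC box. None of the 9 windows held the GLIS core, which was present in 1.36% of all promoters, a TATA box (12.4%) or a CCAAT box (33.9%). These are letters in a short window and say nothing of whether a factor binds there.

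Some arrays stood apart. A principal component analysis put WT replicates 3 and 4 at one end of component 1 (scores of 69.2 and 60.1, 32.3% of variance) and the remaining 6 between -55.8 and 3.82. Component 2 (20.1% of variance) set WT replicate 1 off, at -80.8 against -3.20 or more elsewhere. The probe for Glis3 was dimmer on every Glis3KO2 array (-2.18 to -1.18) than on every WT array (-1.09 to 0.60), a log2 difference of -1.43 (SE 0.45, limma adjusted p = 0.696), and its place relative to the deletion is not given here. A level here is log2 of a probe's processed signal minus log2 of the 75th percentile of its array, so 0 is a probe as bright as that percentile. Levels of different probes are not comparable, and each gene is followed across arrays only. In bulk RNA fewer cells of a type and less RNA per cell cannot be told apart.

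No marker differed between the genotypes past the threshold. Over all genes limma called 0 higher (0%) and 0 lower (0%) in Glis3KO2 at an adjusted p under 0.05, and 0 of the 8 markers, with a smallest adjusted p among them of 0.696. At an unadjusted p under 0.05 there was 1 of the 8 (6.91% of all genes): none was higher (2.15% of all genes) and 1, Pax7, was lower (4.76%). That fit did not pair the arrays. Blocked on replicate number, Mcam (limma unadjusted p = 0.0393) passed as well as Pax7 (0.0403), as did 1879 of 17517 genes. Mean levels were lower in Glis3KO2 for 5 markers (Pax7, Mcam, Upp1, Cd9 and Plvap) and higher for 3 (Epcam, Tspan8 and Adgra3), where 59.2% of all genes had a lower mean. The median log2 difference was -0.28 over the markers and -0.08 over all genes tested. Single arrays moved the marker median: it was -0.11 without WT replicate 4 and -0.17 without Glis3KO2 replicate 2, each with 4 markers higher and 4 lower, and -0.47 without Glis3KO2 replicate 1. Without WT replicates 3 and 4 it was 0.0071, and with normexp, a model-based background correction, and quantile normalization it was -0.038.

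**Figure D1:**
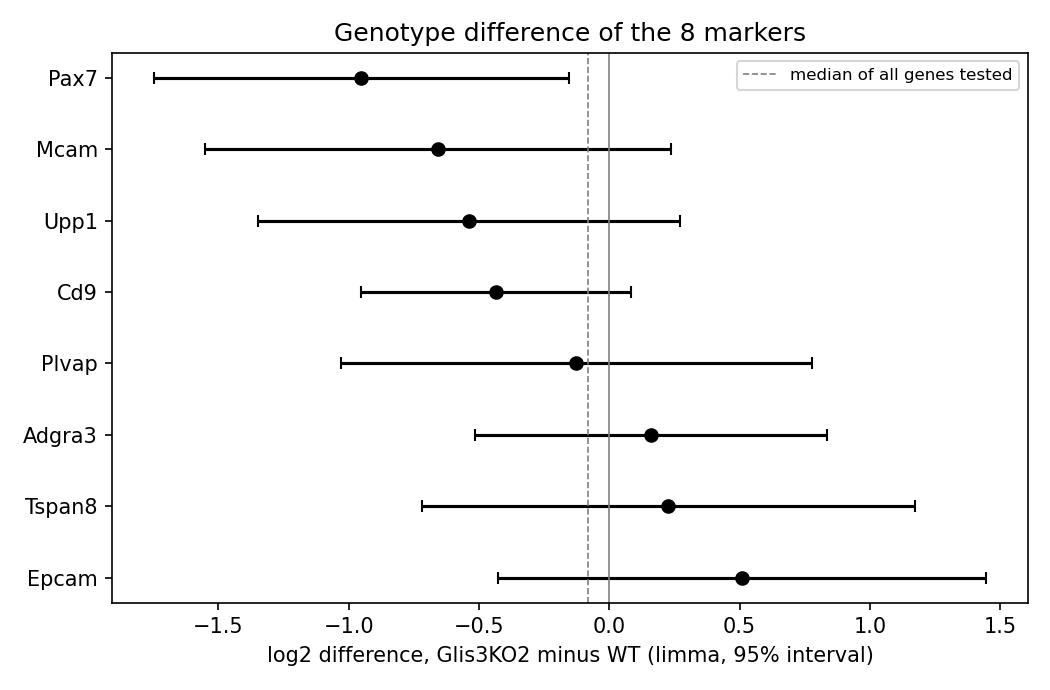
Log2 difference (Glis3KO2 minus WT, x axis) of the 8 markers, from Pax7 at the top to Epcam at the bottom. Points are limma estimates from 4 Glis3KO2 and 4 WT arrays, bars are 95% intervals, and the dashed line is the median of all genes tested. The interval of Pax7, from -1.75 to -0.16, is the only one that leaves out 0, without adjustment for the number of genes. The fit shown did not block on replicate number.

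Pax7 had the largest difference of the 8. Its log2 level was -3.68, -4.004, -4.35 and -3.59 in Glis3KO2 replicates 1 to 4, against -3.37, -3.55, -1.96 and -2.94 in WT replicates 1 to 4. Every Glis3KO2 array lay below every WT array, as for 2.61% of all genes, while no marker was higher in that way (0.902% of all genes). The highest Glis3KO2 value and the lowest WT value of Pax7 were close, and WT replicate 3 lay well above the rest. The means were -3.91 ± 0.34 in Glis3KO2 and -2.96 ± 0.71 in WT (SD, n = 4 each), a difference of -0.95 (SE 0.36), or a signal 1.93-fold lower in Glis3KO2. By p it ranked 550 of 17517 genes (limma unadjusted p = 0.0238, adjusted p = 0.696), and it was lower in 4 of 4 same-numbered pairs. Pax7 was a dim probe: its processed signal was 29.2, 28.6, 12.3 and 28.3 units in Glis3KO2 and 34.3, 45.5, 62.3 and 35.4 units in WT, where the lowest signal of any probe well above background was 3.47 to 9.74 units by array. It was well above background on all 8 arrays. The difference was -0.62 without WT replicate 3, -0.45 without WT replicates 3 and 4, and -0.27 with normexp and quantile normalization.

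Because Pax7 is also the satellite cell gene, muscle markers were read beside it. Of a list of 8 satellite cell and muscle genes 6 were measured, 2 with a higher and 4 with a lower mean in Glis3KO2 and none called. The list summed to between 23.3 and 41.1 in Glis3KO2 and between 29.6 and 31.6 in WT, in units of the 75th percentile, but the probe annotated to Myod1, the muscle determination factor, made up 90.7% to 95.6% of that sum on every array. Without it the sum was 1.80 to 2.95 in Glis3KO2 and 1.81 to 2.22 in WT. The Myod1 probe read 4.87 ± 0.36 in Glis3KO2 and 4.84 ± 0.037 in WT (SD, n = 4 each), and whether it detects Myod1 RNA alone was not tested. Myf5, a defining satellite cell factor, did not pass the filter on dim probes. Their part in the Pax7 result was not tested.

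Mcam was measured by 2 probes, which share a target gene and are not replicates. The brighter, A_52_P268206, stood for the gene, with levels of 3.08, 2.47, 3.58 and 3.00 in Glis3KO2 replicates 1 to 4 and 3.12, 2.91, 4.54 and 4.19 in WT replicates 1 to 4. WT replicates 3 and 4 were above all other arrays, and WT replicates 1 and 2 lay within the Glis3KO2 range. Its means were 3.03 ± 0.45 in Glis3KO2 and 3.69 ± 0.80 in WT (SD, n = 4 each), a difference of -0.66 (SE 0.40, limma adjusted p = 0.696), or 1.58-fold lower in Glis3KO2.
The second Mcam probe, A_51_P268439, had the same order of arrays at the top. It read 2.07, 1.89, 2.44 and 1.73 in Glis3KO2 and 2.46, 2.08, 3.45 and 3.39 in WT. In the fit over all 36435 kept probes, of which limma called 0, its difference was -0.81 (SE 0.35, unadjusted p = 0.0439, adjusted p = 0.759). The Glis3KO2 level was lower in 4 of 4 pairs for the gene, by -0.04, -0.44, -0.96 and -1.19, as for 13.6% of all genes. Without WT replicates 3 and 4 the difference turned to 0.016 for the first probe and was -0.23 for the second, and without WT replicate 3 alone the first was at -0.37.

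Mcam also belongs to vessels and their mural cells, so those lists were read beside it and beside Plvap. The smooth muscle and pericyte list had 10 of 10 measured genes with a higher mean in Glis3KO2, none called, and summed to between 56.9 and 154 in Glis3KO2 and between 33.7 and 99.7 in WT. Its median difference was 0.84, and without WT replicates 3 and 4 it was 0.21, with 9 of 10 higher. Des, named after its values were seen, differed by 1.39 (SE 0.52). It was the 1 gene of the list with an unadjusted p under 0.05 by limma, where 2.15% of all genes were higher. Acta2, smooth muscle actin, differed by 0.76 (SE 0.34) and Rgs5, a pericyte regulator of G protein signalling, by 0.70 (SE 0.36), so these means lay on the other side from that of Mcam. On WT replicates 3 and 4, where Mcam was highest, the centred mean of that list was lowest, at -0.68 and -1.29. The germ cell list was highest on those arrays, at 0.84 and 1.42, with Glis3KO2 arrays between -0.85 and -0.12 and WT replicates 1 and 2 at -0.31 and -0.18. The Sertoli list was high there too, at 0.78 and 0.64, with WT replicates 1 and 2 at -0.30 and -0.45, and it was highest on Glis3KO2 replicate 4 at 0.83.

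Plvap had the smallest difference of the 8 by size. It read -1.37, -3.23, -2.26 and -2.72 in Glis3KO2 and -2.01, -2.78, -2.56 and -1.73 in WT, so that the WT range lay inside the Glis3KO2 range. The means were -2.39 ± 0.79 in Glis3KO2 and -2.27 ± 0.49 in WT (SD, n = 4 each), with a difference of -0.13 whose 95% interval reached from -1.03 to 0.78 (limma adjusted p = 0.944). The sign differed between slides, at 0.47 on slide 1 and -0.72 on slide 2, as it did for 38.3% of all genes. The difference turned to 0.15 without Glis3KO2 replicate 2 and to 0.054 without WT replicate 4, and was -0.47 without Glis3KO2 replicate 1, -0.30 without WT replicate 2, -0.22 without WT replicate 3, -0.039 without WT replicate 1 and -0.018 without Glis3KO2 replicate 4. It was -0.52 with normexp and the 75th percentile and -0.014 with normexp and quantile normalization.
The endothelial list had 5 of 12 measured genes with a higher mean in Glis3KO2 and 7 with a lower one, none called, with sums between 4.51 and 8.12 in Glis3KO2 and between 3.54 and 7.48 in WT. That split was 2 higher to 10 lower with normexp and the 75th percentile, and 7 to 5 with normexp and quantile normalization. It was 9 to 3 without WT replicate 1, 3 to 9 without Glis3KO2 replicate 2, 8 to 4 with array weights and 3 to 9 without WT replicates 3 and 4, so the list had no settled direction. Pecam1, the platelet endothelial adhesion molecule, differed by -0.32 (SE 0.36) and Cdh5, the endothelial cadherin, by 0.72 (SE 0.36), neither past the threshold. Flt1, a VEGF receptor named after its values were seen, was the one gene of the list with an unadjusted p under 0.05 by limma. Its difference was -1.09 (SE 0.34, limma adjusted p = 0.696), with every Glis3KO2 array below every WT array, as for 2.61% of all genes. On Glis3KO2 replicate 1, where Plvap was highest, the centred endothelial mean was 0.11. On Glis3KO2 replicate 2, where Plvap was lowest, that mean was 0.16. The endothelial mean was highest on WT replicate 1, at 0.71, where Plvap was second only to WT replicate 4 among WT arrays. On WT replicate 4 the endothelial mean was -0.20, so the 2 did not run together across the arrays. The part of vessel cells in the Plvap and Mcam levels was not tested.

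Epcam had the largest difference towards Glis3KO2. Its level was -0.035, 0.75, 0.49 and -0.09 in Glis3KO2 replicates 1 to 4 and -1.15, -0.82, 0.58 and 0.47 in WT replicates 1 to 4. WT replicates 1 and 2 were lower than all other arrays, while WT replicates 3 and 4 lay within the Glis3KO2 range. Means of 0.28 ± 0.41 in Glis3KO2 and -0.23 ± 0.88 in WT (SD, n = 4 each) gave a difference of 0.51 (SE 0.42, limma adjusted p = 0.754), with a 95% interval of -0.43 to 1.44. By pair the difference was 1.11, 1.57, -0.08 and -0.56, and it was 0.51 on slide 1 and 0.50 on slide 2. Without WT replicates 3 and 4 it was 1.26 (SE 0.33, limma unadjusted p = 0.00522, adjusted p = 1), without WT replicate 1 it was 0.20, without WT replicate 2 0.31 and without WT replicate 3 0.78. With array weights it was 0.18.
Cldn7, a claudin that binds Epcam, differed by 0.91 (SE 0.56, limma adjusted p = 0.697). Epithelial markers of the epididymis and mesonephros had a higher mean in Glis3KO2 for 7 of 10 genes, none called, with sums between 4.37 and 8.19 in Glis3KO2 and between 3.68 and 6.17 in WT. With normexp and the 75th percentile the split was 5 to 5. Against the median of all genes, 7 of 10 lay above in that setting and 8 of 10 as reported. Krt8, a keratin of simple epithelia, differed by 0.89 (SE 0.48). Their part in the Epcam level was not tested.

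**Figure D2:**
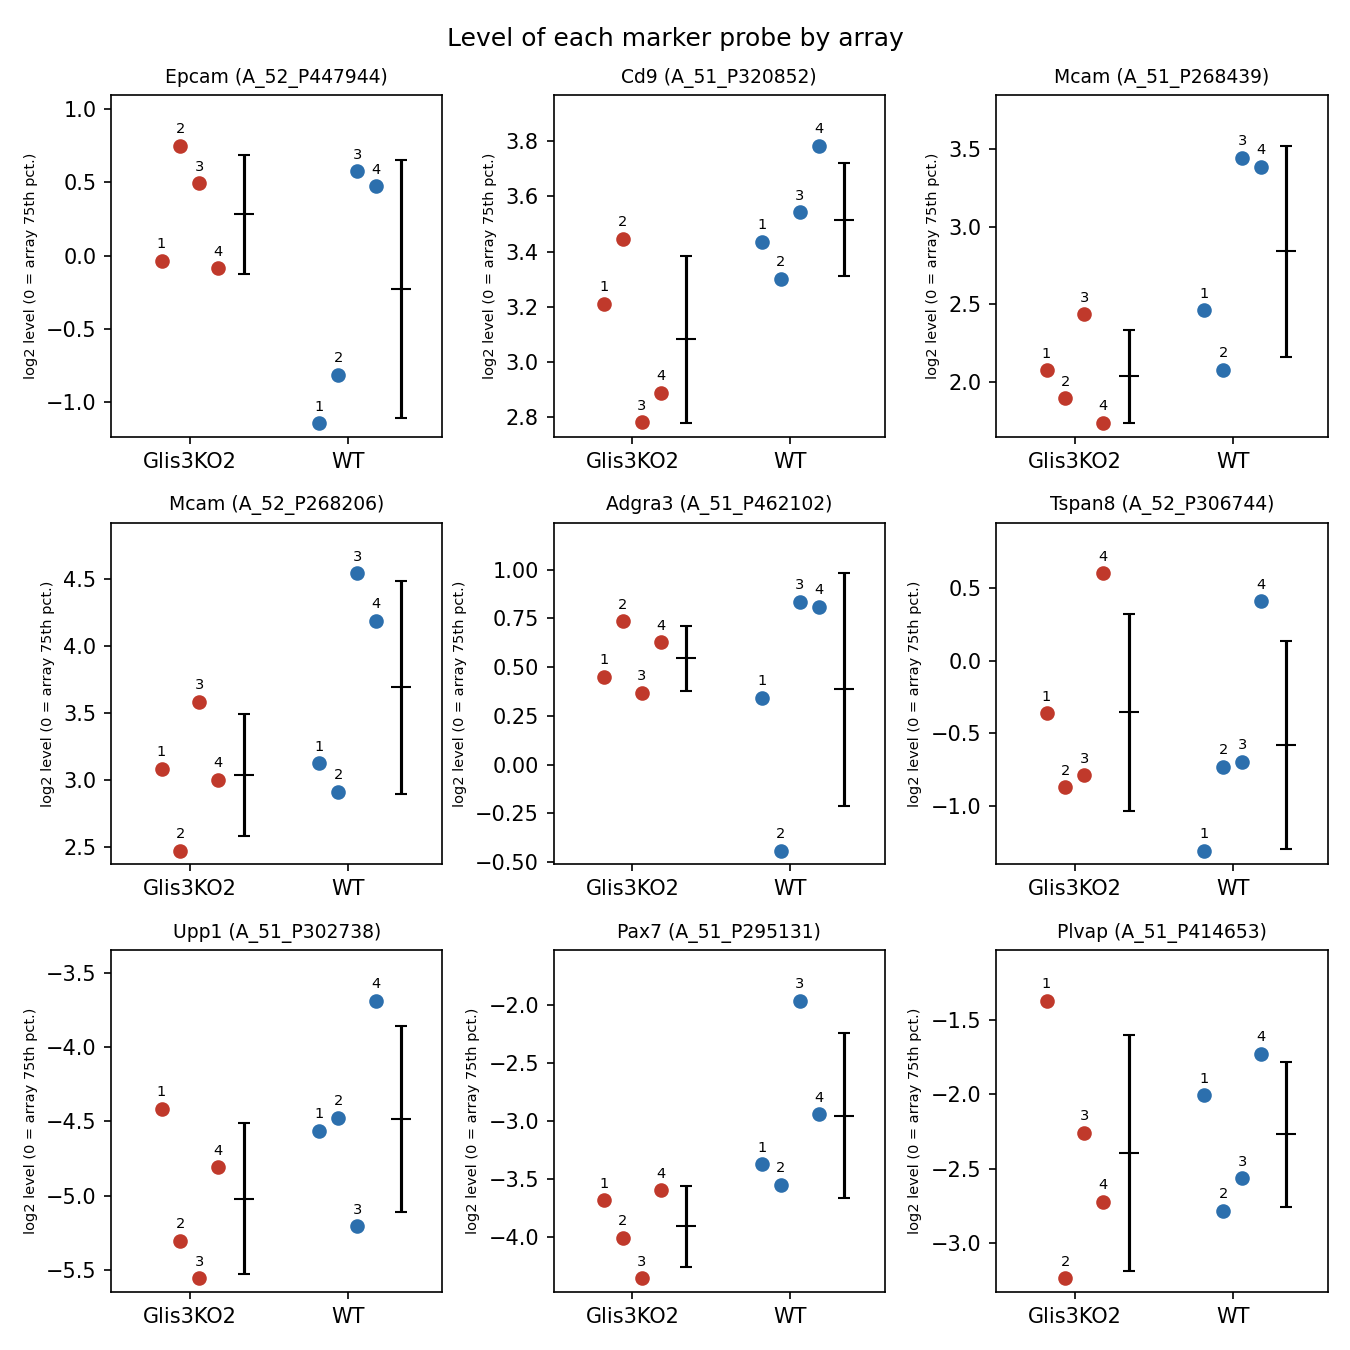
Log2 level of each marker probe (y axis, 0 is the array's 75th percentile) on the 4 Glis3KO2 arrays (left, red) and the 4 WT arrays (right, blue), numbered by replicate. Bars are the mean and SD of 4 arrays. The groups overlap in every panel but that of Pax7.

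The tetraspanins differed in how much they varied. Cd9 was steady: it read 3.21, 3.45, 2.78 and 2.89 in Glis3KO2 and 3.44, 3.30, 3.54 and 3.79 in WT. Its spread within genotypes had an SD of 0.26, at the 15.1 percentile of all genes, the lowest of the 8 markers. Glis3KO2 replicate 2 alone reached into the WT range. The means of 3.08 ± 0.30 in Glis3KO2 and 3.52 ± 0.20 in WT (SD, n = 4 each) differed by -0.44 (SE 0.23, limma adjusted p = 0.696), or 1.35-fold lower in Glis3KO2, in 3 of 4 pairs. The 95% interval of -0.95 to 0.08 includes 0. The difference was -0.17 with normexp and the 75th percentile, where the median of all genes was -0.23, and -0.29 without WT replicates 3 and 4.
Tspan8, by contrast, lay at the 82.0 percentile of spread, the highest of the 8. It read -0.36, -0.87, -0.79 and 0.60 in Glis3KO2 and -1.31, -0.73, -0.70 and 0.41 in WT, so that replicate 4 was the highest array in both genotypes. The difference of 0.23 (SE 0.42, limma adjusted p = 0.895) had an interval of -0.72 to 1.17. It was higher in 2 of 4 pairs. It turned to -0.093 without Glis3KO2 replicate 4 and to -0.016 without WT replicate 1, and was 0.56 without WT replicate 4, 0.40 without Glis3KO2 replicate 2 and 0.37 without Glis3KO2 replicate 3. With WT replicates 3 and 4 left out it was 0.66. With normexp it was 0.033 after scaling to the 75th percentile and 0.14 after quantile normalization, and with array weights it was 0.072.
Of 21 other tetraspanins, all measured, 13 had a higher and 8 a lower mean in Glis3KO2, none called, with a median of 0.28. Cd81, the close partner of Cd9, differed by 0.19 (SE 0.34), the lysosomal Cd63 by 0.47 (SE 0.40) and Cd82 by -0.29 (SE 0.34). Cd151, the partner of laminin-binding integrins, differed by -0.50 (SE 0.23, limma adjusted p = 0.696), with every Glis3KO2 array (-1.39 to -0.998) below every WT array (-0.94 to -0.19), as for 2.61% of all genes. Tspan12, a tetraspanin of Norrin signalling named after its values were seen, was the one gene of the list with an unadjusted p under 0.05 by limma, and its difference ran the other way, at 1.05 (SE 0.46, limma adjusted p = 0.696). Without WT replicates 3 and 4 the tetraspanins split 10 higher to 11 lower, with a median of -0.07. The median was 0.10 without Glis3KO2 replicate 2, 0.14 without WT replicate 3 and 0.15 without WT replicate 4.

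Adgra3 read 0.45, 0.74, 0.37 and 0.63 in Glis3KO2 and 0.34, -0.44, 0.83 and 0.81 in WT. The Glis3KO2 arrays were close together, WT replicates 3 and 4 lay above all of them and WT replicates 1 and 2 below. The difference of 0.16 (SE 0.30, limma adjusted p = 0.897) had an interval of -0.52 to 0.83, and the sign differed between slides, at -0.18 on slide 1 and 0.50 on slide 2. It turned to -0.12 without WT replicate 2, and was 0.10 without Glis3KO2 replicate 2, 0.31 without WT replicate 3, 0.30 without WT replicate 4 and 0.60 without WT replicates 3 and 4, and 0.10 with normexp and the 75th percentile.

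Upp1 was measured close to background. Of the 4 Glis3KO2 arrays 1 had the probe well above background, and of the 4 WT arrays 3 did, so its differences rest on values near the limit of detection. Its processed signal ran from 5.35 to 17.5 units in Glis3KO2 and from 6.58 to 24.0 units in WT. As log2 levels Upp1 read -4.41, -5.30, -5.55 and -4.81 in Glis3KO2 and -4.56, -4.47, -5.21 and -3.69 in WT. Replicate 3 was the lowest array in both genotypes. The difference of -0.54 (SE 0.36, limma adjusted p = 0.711) had an interval of -1.35 to 0.27 and was lower in 3 of 4 pairs. It was -0.10 on slide 1 and -0.98 on slide 2, -0.062 with normexp and quantile normalization, -0.27 with quantile normalization of log2 signal and -0.27 without WT replicate 4.

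The markers did not form 1 pattern across the arrays. In pair 1 Glis3KO2 was lower for 3 of the 8, in pair 2 for 5, in pair 3 for 7 and in pair 4 for 7, beside 54.6%, 49.9%, 58.8% and 57.7% of all genes. The exceptions in pairs 3 and 4 were Plvap and Tspan8. WT replicates 3 and 4 were both above WT replicates 1 and 2 for 6 of the 8 markers, all but Upp1 and Plvap, as for 29.9% of all genes, a count chosen after the values were seen.

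**Figure D3:**
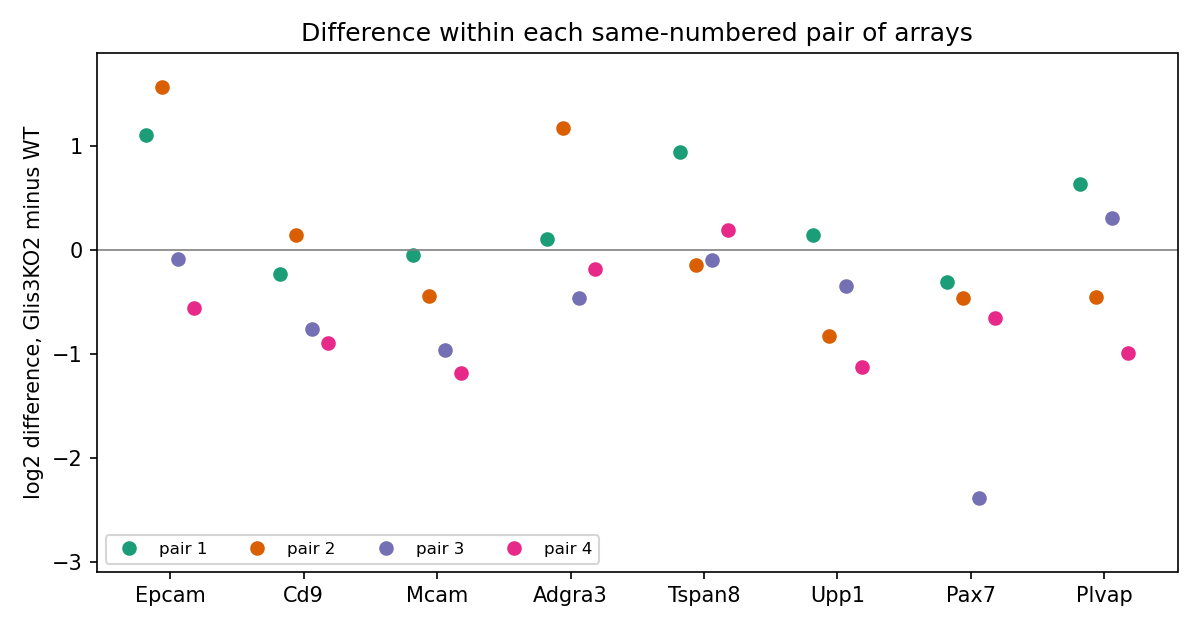
Log2 difference (Glis3KO2 minus WT, y axis) within each pair of arrays with the same replicate number, for each marker (x axis). Pax7 and Mcam are below 0 in 4 of 4 pairs, Epcam is above 0 in pairs 1 and 2 and below in pairs 3 and 4, and the lowest point is Pax7 in pair 3 at -2.39.

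Likeness between markers was measured as the mean absolute difference of their centred log2 levels over the 8 arrays, where 0 is the same pattern. The closest markers were Cd9 and Adgra3, at 0.33, followed by Epcam and Adgra3 at 0.34, and by Mcam with Pax7 and Cd9 with Pax7, both at 0.37. The least alike were Epcam and Upp1, at 0.89. Over all genes with established symbols, the nearest to Cd9 were Ndufa11 (0.06), a subunit of mitochondrial complex I, Lamtor1 (0.07), a lysosomal anchor of mTORC1 signalling, and Kansl2 (0.09), of a histone acetyltransferase complex. The nearest to Pax7 were Dct (0.11), the melanin enzyme, Nkx1-2 (0.15) and Ndufb9 (0.18). Mcam had Pik3cb (0.09), a catalytic subunit of PI3-kinase, Ppp1r14d (0.13) and Glb1l3 (0.14).
For Adgra3 the nearest were Klhl15 (0.11), Agk (0.12), a mitochondrial acylglycerol kinase, and the homeobox gene Dlx2 (0.12), and for Plvap they were Lgals3bp (0.15), Inca1 (0.17) and Mapk15 (0.17). Tspan8 had Cntrob (0.16), Nup43 (0.20) and Mtmr7 (0.20), Upp1 had Ccdc71 (0.18), Trmt2b (0.21) and Kcns1 (0.23), and Epcam had Polq (0.18), a DNA repair polymerase, Fastkd2 (0.20) and Slitrk3 (0.21). The arrays share 2 slides and 1 scaling, and with 8 of them many genes lie near any pattern.

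**Figure D4:**
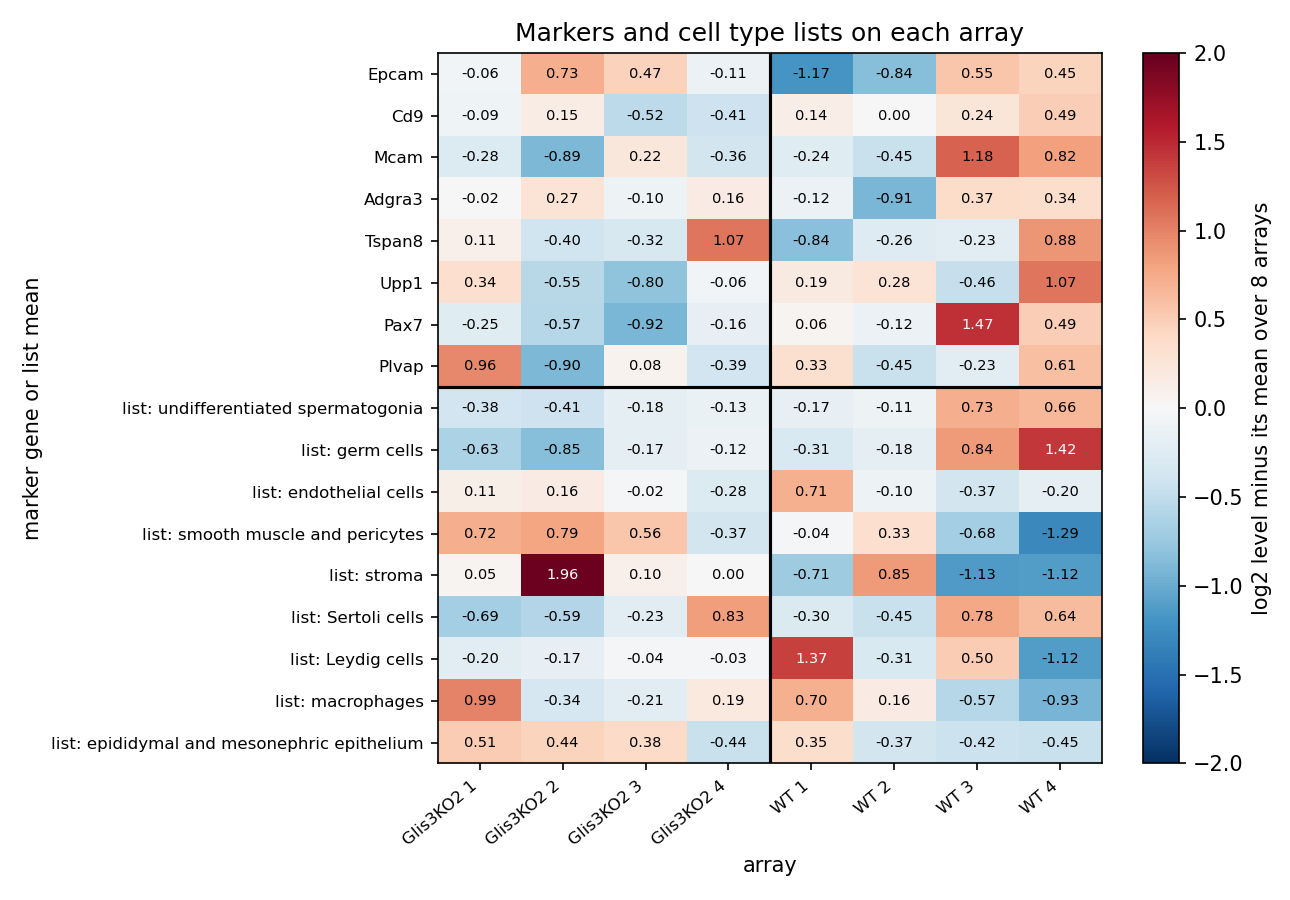
Log2 level minus its mean over the 8 arrays (colour and printed value) for the 8 markers (top) and for the mean of 9 marker lists (bottom), with Glis3KO2 arrays on the left and WT arrays on the right. Mcam, Pax7 and the germ cell list are highest on WT replicates 3 and 4, where the stroma list is lowest.

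Other surface proteins by which spermatogonia are enriched lay on both sides of 0. Of 12 listed and measured, 6 had a higher and 6 a lower mean in Glis3KO2, none called, with a median of -0.00. Thy1, the protein used for the isolation, differed by 0.65 (SE 0.44). It read -0.03 on WT replicate 4, against 1.33 to 2.46 on all other arrays. Cd24a, a GPI-anchored adhesion protein, differed by 0.64 (SE 0.40). Itga6, the laminin receptor subunit, differed by -0.06 (SE 0.25) and the GDNF co-receptor Gfra1 by -0.59 (SE 0.33). Ret, the kinase that signals with Gfra1, differed by -0.81 (SE 0.71) and Cdh1, E-cadherin, by -1.02 (SE 0.32). Cdh1 was the one gene of the list with an unadjusted p under 0.05 by limma (adjusted p = 0.696). It read -4.34, -3.83, -4.74 and -5.19 in Glis3KO2 and -3.63, -3.88, -3.45 and -3.04 in WT. Only Glis3KO2 replicate 2 reached into the WT range.

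Genes of undifferentiated spermatogonia that do not act at the surface had a lower mean in Glis3KO2 for 18 of 20 measured genes, 0 called, with a median of -0.42. Without WT replicates 3 and 4 this was 11 of 20, with a median of -0.01. With all arrays 5 of the 20 were lower at an unadjusted p under 0.05 by limma, beside 4.76% of all genes. They were Bcl6b, Pou3f1, Nanos2, Nanos3 and Tcl1, named after their values were seen. Bcl6b differed by -1.37 (SE 0.34) and Nanos3 by -1.16 (SE 0.26), each at limma adjusted p = 0.696. For Nanos3 every Glis3KO2 array lay below every WT array, as for 2.61% of all genes. Id4, an inhibitor of DNA binding found in stem spermatogonia, differed by -0.34 (SE 0.41) and the GDNF-responsive factor Etv5 by -0.79 (SE 0.41). The germ cell list, which also holds Nanos3, had a lower mean for 10 of 10 genes, 0 called, with a median of -1.01. Of its genes 5, Nanos3 among them, were lower at an unadjusted p under 0.05 by limma, beside 4.76% of all genes. Without WT replicates 3 and 4 the germ cell list had a lower mean for 8 of 10, with a median of -0.15. Without WT replicate 4 alone the median was -0.64. In it the RNA helicase Ddx4 differed by -0.94 (SE 0.47) and the translational regulator Dazl by -0.31 (SE 0.47).
The germ cell list summed to between 24.9 and 43.5 in Glis3KO2 and between 26.9 and 108 in WT, and its 10 genes, Ddx4 and Dazl among them, were well above background on all 8 arrays, so defining germ cell markers were present in each sample. Somatic markers were detected too. The stroma list summed to between 86.0 and 330 in Glis3KO2 and between 35.5 and 158 in WT, with 10 of 10 genes at a higher mean in Glis3KO2 (8 of 10 with normexp and the 75th percentile, and without Glis3KO2 replicate 2), none called, and Col1a1, a collagen chain, at 1.41 (SE 0.61). Sertoli genes summed to between 12.8 and 35.6 in Glis3KO2 and 17.96 and 43.9 in WT (Sox9 at -0.24, SE 0.55), and Leydig genes to between 24.9 and 27.4 in Glis3KO2 and 14.1 and 76.7 in WT (Cyp11a1 at -0.50, SE 0.64). Macrophage genes summed to between 26.6 and 63.0 in Glis3KO2 and 17.4 and 56.7 in WT (Adgre1, the F4/80 antigen, at 0.20, SE 0.46). Leaving out WT replicates 3 and 4 moved these lists as well. The stroma median went from 1.03 to 0.39, still with 10 of 10 genes higher. Macrophage genes went from 11 of 12 higher to 2 of 12, Sertoli genes from 2 of 10 to 6 of 10 and Leydig genes from 2 of 7 to 0 of 7. How far these cells set the marker levels was not tested.

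**Figure D5:**
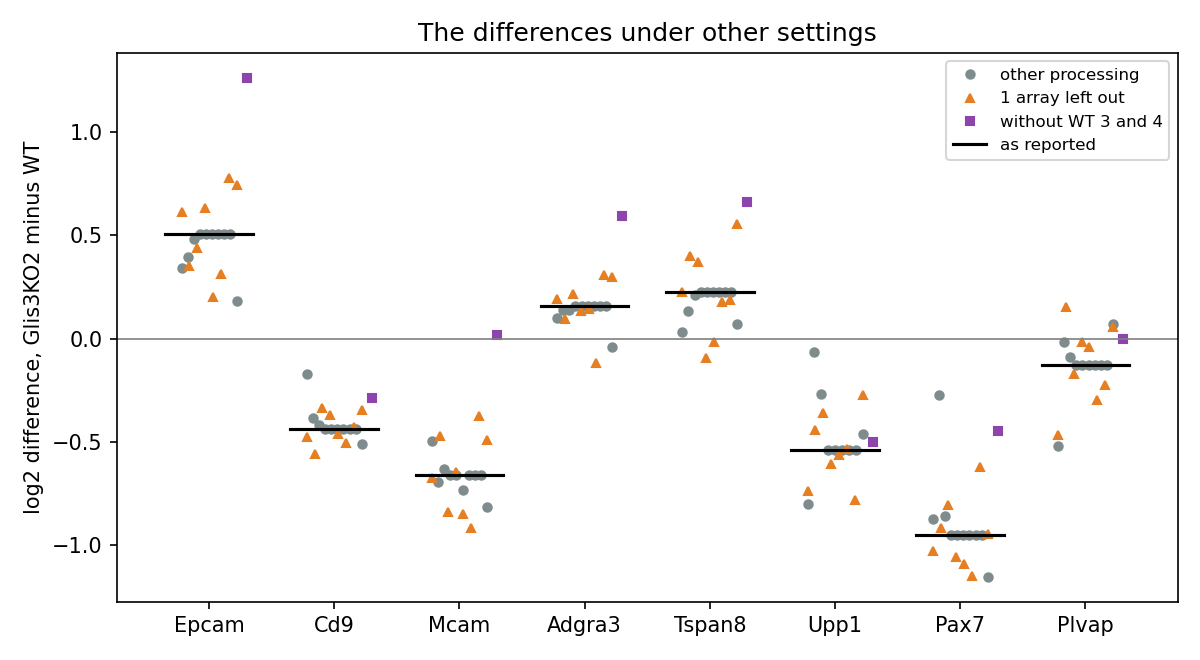
Log2 difference (Glis3KO2 minus WT, y axis) of each marker (x axis) as reported (line), with other processing (grey), with 1 array left out (orange) and without WT replicates 3 and 4 (purple). Without those arrays Mcam lies at 0.016 in place of -0.66 and Epcam at 1.26 in place of 0.51, and Plvap, Tspan8 and Adgra3 lie on both sides of 0.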

How the data were processed

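RNA of 8 samples was amplified with a NuGEN whole transcriptome kit, labelled with Cy3 and measured on 1-colour Agilent arrays, 4 of each genotype. Per the file headers, scans were read by Feature Extraction version 12.0.0.7, and the deposited intensity is background-subtracted and detrended within an array. The deposited flags mark spots well above background, saturated or outlying, and no marker probe was saturated. The deposited value table equals that intensity on 100% of spots, so it is no second normalization (column medians 67.2 to 143.6, linear, not centred). The array annotation is on mm9, and no coordinates are taken from it.

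Intensities were taken as log2 minus each array's 75th percentile (243 to 533 units). Outlier spots were dropped (73 to 109 per array) and spots of a probe averaged. RefSeq accessions named 28223 probes, and 12951 stayed unnamed. Probes were kept (36435) if 4 or more of the 8 arrays had them well above background, and the brightest stood for its gene. By array, 86.0% to 90.3% of spots were well above background. Precision is limited by having 8 arrays. Tests used limma 3.58.1 in R 4.3.3 (lmFit, eBayes) over all genes, with Benjamini-Hochberg adjustment, and were tested on simulated data. Replicates 1 and 3 lay on slide 1 and 2 and 4 on slide 2, each scanned once, with Glis3KO2 at positions 3 and 4 and WT at 1 and 2, so position and genotype cannot be told apart. Deviations of same-numbered arrays correlated at 0.16, 0.34, 0.18 and 0.13 across genes, over the 0.1 set for calling them paired, though the Glis3KO2 and WT replicates 3 and 4 crossed at 0.12 and 0.14. The main fit left the arrays unpaired, and the fit blocked on replicate number is given as an alternative.

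The markers, lists and tests were chosen with earlier results of these data known. Named genes were the markers, genes fixed by name as lineage or family markers, and the 3 genes nearest each marker, leaving out provisional symbols. Alternatives were other background corrections, scalings, filters, probe rules, blocks, spread models and weights, and each array left out. Leaving out WT replicates 3 and 4 was chosen after seeing the data. Mean spot signal is not among the columns, so normexp (offset 50) used the median signal. A list of genes tied to Epcam is not reported here.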

Additional observations from a re-analysis of the deposited data

How the results depend on the processing

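Of 19 alternatives for each marker (18 for Upp1, which is dropped where all 8 arrays must be well above background), none brought a marker past the threshold, with adjusted p from 0.315 to 1. Pax7, Cd9, Epcam and Upp1 kept their sign in all that were run. With normexp and the 75th percentile Cd9, at -0.17, nevertheless lay above the median of all genes. With array weights Adgra3 turned to -0.038 and Plvap to 0.071. With 1 array left out Plvap ranged from -0.47 to 0.15, Tspan8 from -0.093 to 0.56 and Adgra3 from -0.12 to 0.31, each on both sides of 0. Without WT replicates 3 and 4 Mcam turned to 0.016, and the cause was not tested. The count of genes called was 0 in all but quantile normalization of log2 signal, where it was 1: Gm16702, chosen after its values were seen, with limma adjusted p = 0.0252. No Glis3KO2 array of 4 had it well above background, so its signal was at least 3.02-fold lower in Glis3KO2, a bound set by the lowest signal well above background on each array. Blocking on replicate number, limma again called 0 genes and no marker, and it changed no call. Mcam was at -0.66 (SE 0.26, limma unadjusted p = 0.0393, adjusted p = 0.454). Pax7 was at -0.95 (SE 0.38, limma unadjusted p = 0.0403, adjusted p = 0.456). Both were under 0.05 unadjusted, where without the block only Pax7 was. The block gave 1879 genes at an unadjusted p under 0.05, against 1210 without it. Other settings gave 664 (without WT replicate 3) to 2412 (without WT replicate 2). Normexp with the 75th percentile moved the median of all genes to -0.23, so its differences are read against that. Of the genes at an unadjusted p under 0.05, 377 were higher and 833 lower, and with normexp and quantile normalization 465 and 615. Signal over background limits Upp1, which was not well above background on 4 of 8 arrays.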
